A study of Mus musculus with 24 samples.

Results

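The genes described here are the FGF receptors Fgfr1, Fgfr2 and Fgfr3, the ligand gene Fgf15, and 6 genes that FGF signalling is known to switch on: the inhibitors Spry1, Spry2, Spry4 and Dusp6 and the transcription factors Etv4 and Etv5. They were chosen by symbol, and all 10 were found among the 12611 genes of the count table and passed the filter on low counts. Total RNA was sequenced from CD1 mouse lenses, CD1 being an outbred stock, after each lens had been separated into epithelium and fiber cells. Both tissues were taken at 3 embryonic stages, named E14.5, E16.5 and E18.5 for the day of gestation, and just after birth at P0.5, with 3 biological replicates each, which gave 8 groups and 24 libraries from untreated mice of 1 stock. The epithelium is the dividing sheet at the front of the lens, and the fiber cells that it produces elongate, fill with crystallin and lose their organelles. The sources used here do not say whether a replicate pools several animals or whether both tissues of a replicate came from the same animals, so p-values measure only the spread between these libraries.

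FGFs bind receptor tyrosine kinases together with heparan sulfate, and the activated receptor signals through the adaptor Frs2, RAS and the kinase ERK to ETS transcription factors. The pathway restrains itself, because ERK signalling switches on Sprouty proteins, which act upstream of ERK, and Dusp6, a phosphatase that inactivates ERK. In the lens, FGF from the ocular media is known to promote proliferation of the epithelium and, at higher levels, differentiation into fibers. The comparison of tissues and stages addresses how these genes are expressed before and after cells enter the fiber pathway.

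The tissue labels were checked against 7 epithelium markers and 9 fiber markers. The summed level of the epithelium markers was 2258 to 2957 CPM (counts relative to the library size, scaled with TMM) in libraries of epithelium and 192 to 404 in those of fiber. The fiber markers summed to 36899.7 to 59210.1 CPM in fiber and 5290.2 to 11106 CPM in epithelium, so fiber transcripts were also present in the epithelium libraries. Total counts were 7658794 to 11819117 in epithelium and 13010174 to 21617737 in fiber, and 16 crystallin genes took 1.66% to 4.28% of the counts in epithelium and 23.3% to 43.9% in fiber. Because of that difference, the zero point of every comparison between tissues depends on the scaling. The median gene stood at -0.03 (log2, fiber minus epithelium, mean of 4 stages) with TMM and at -1.23 when only the total count was used, and values below are with TMM unless stated. Endothelial cells, which line the vessels around the embryonic lens, were also represented: their 10 markers summed to 265 to 499.7 CPM in epithelium and 21.8 to 45.1 CPM in fiber, and none was at 0 throughout a group.

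Etv4 and Etv5 belong to the ETS family, whose members bind a GGAA core. RefSeq promoter windows were found for 6 of the 10 genes (GRCm38.p6). The windows of 3 target genes that were higher in fiber and of Dusp6, which was lower, are shown because these known targets differed between the tissues in opposite directions. Each is the 250 bases before a transcription start that overlap no annotated exon of the gene, written 5′ to 3′ on the strand of the gene, with GGAA on either strand (GGAA or TTCC) in capitals.
Spry1, chr3:37639697-37639946, plus strand: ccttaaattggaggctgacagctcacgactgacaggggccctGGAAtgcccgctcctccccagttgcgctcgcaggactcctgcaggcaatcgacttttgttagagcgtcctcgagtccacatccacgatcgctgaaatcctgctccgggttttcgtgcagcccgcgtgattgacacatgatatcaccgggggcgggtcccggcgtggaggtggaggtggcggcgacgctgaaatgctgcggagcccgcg
Spry2, chr14:105896820-105897069, minus strand: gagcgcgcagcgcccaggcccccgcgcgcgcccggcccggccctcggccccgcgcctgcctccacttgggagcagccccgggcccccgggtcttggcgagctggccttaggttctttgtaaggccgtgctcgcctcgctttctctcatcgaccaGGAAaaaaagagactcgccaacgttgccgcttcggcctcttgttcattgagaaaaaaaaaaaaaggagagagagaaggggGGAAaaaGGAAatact
Dusp6, chr10:99262981-99263230, plus strand: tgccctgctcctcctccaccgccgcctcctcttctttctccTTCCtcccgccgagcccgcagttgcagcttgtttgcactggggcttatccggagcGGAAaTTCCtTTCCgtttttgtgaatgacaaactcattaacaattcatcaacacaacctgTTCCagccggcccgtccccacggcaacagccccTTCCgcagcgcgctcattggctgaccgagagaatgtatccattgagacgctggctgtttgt
Etv5 at its second listed start, chr16:22438369-22438618, minus strand: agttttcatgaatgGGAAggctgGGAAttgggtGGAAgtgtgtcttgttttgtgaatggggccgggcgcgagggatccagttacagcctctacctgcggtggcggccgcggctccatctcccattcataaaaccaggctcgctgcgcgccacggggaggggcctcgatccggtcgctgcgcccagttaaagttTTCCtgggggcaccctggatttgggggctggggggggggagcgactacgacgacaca
Dusp6 had 6 matches, Etv5 had 4, Spry2 had 3 and Spry1 had 1. GGAA occurred in 93.4% of 32817 RefSeq promoter windows of the same length, with a median of 3 matches, so its presence does not set these genes apart. The longer ETS form GGAAGT, which was present in 19.7% of all windows, occurred in the Etv5 window, where it overlaps a GGAA match, and in none of the other windows shown. CCGGAA (12.02% of all windows), TGANTCA (6.75%), the form bound by AP-1 factors, and TGCTGAC (3.81%), part of the site bound by large Maf factors, occurred in none of the windows found for the 10 genes. A match is a description of the letters, not evidence of binding.

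Across stages, 4 of the 10 genes were higher in fiber (Spry1, Fgfr3, Spry2 and Etv5) and 3 were lower (Fgf15, Dusp6 and Etv4), while Fgfr1, Fgfr2 and Spry4 did not reach 2-fold. A gene was called when edgeR's quasi-likelihood test gave an adjusted p under 0.05 and the difference was at least 2-fold. In the same comparison 15.7% of the 12427 genes tested were called higher and 22.2% lower. The members thus differed in both directions, and the median of the 10 was 0.15 (log2) beside -0.03 for all genes. The same 4 genes were called higher at each stage, where 14.0%, 14.6%, 17.4% and 17.5% of all genes were called higher in the order of the stages. Of the lower genes, Dusp6 was called at every stage, Fgf15 from E16.5 on, and Etv4 at E14.5, E18.5 and P0.5. The share of all genes called lower was 19.4%, 20.4%, 24.2% and 24.5% at the same stages. In bulk tissue, a smaller number of cells of a type and less RNA per cell cannot be told apart.

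**Figure D1:**
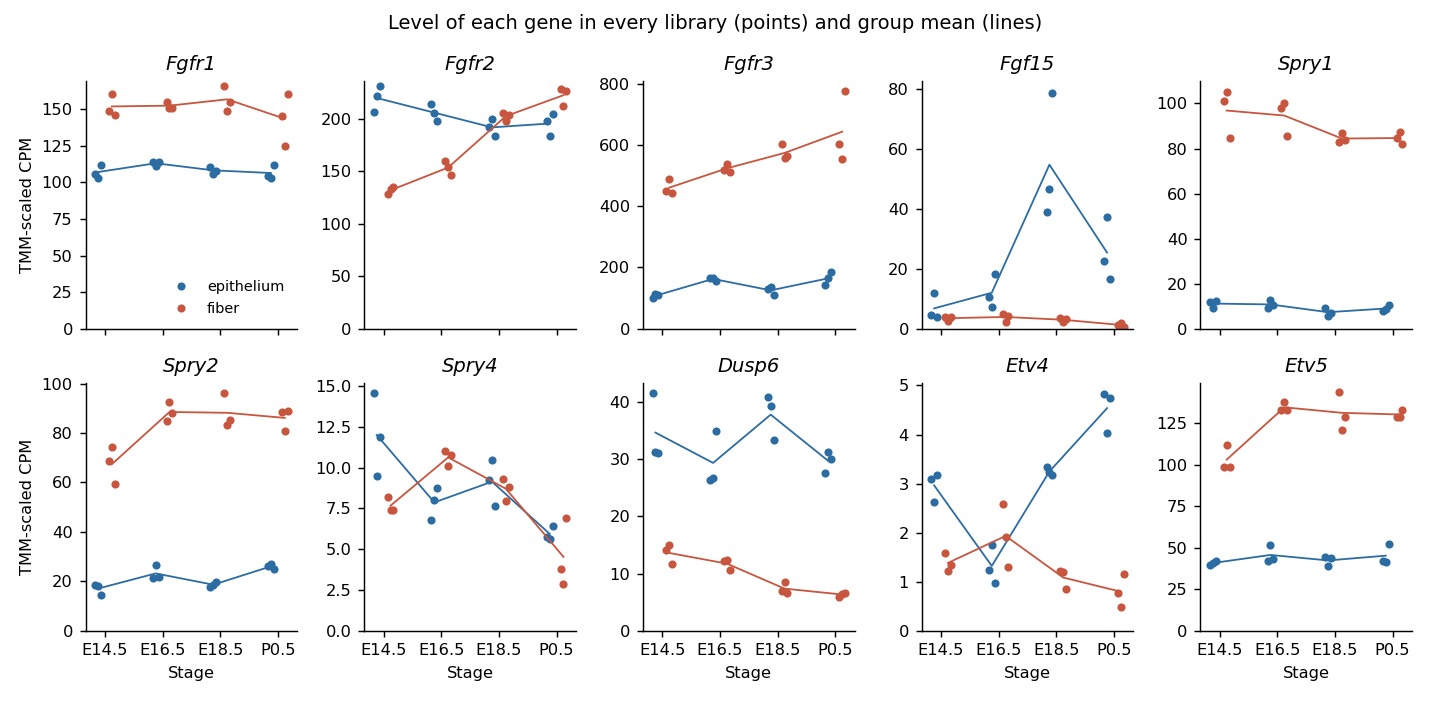
Level of each of the 10 genes (TMM-scaled CPM, linear axes from 0) against stage, with a point for every library and a line through the means of 3 replicates, epithelium in blue and fiber in red. Spry1, Spry2, Fgfr3 and Etv5 lie higher in all fiber libraries than in any epithelium library, Dusp6 lies lower, and the Fgfr2 lines cross between E16.5 and E18.5.

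**Figure D2:**
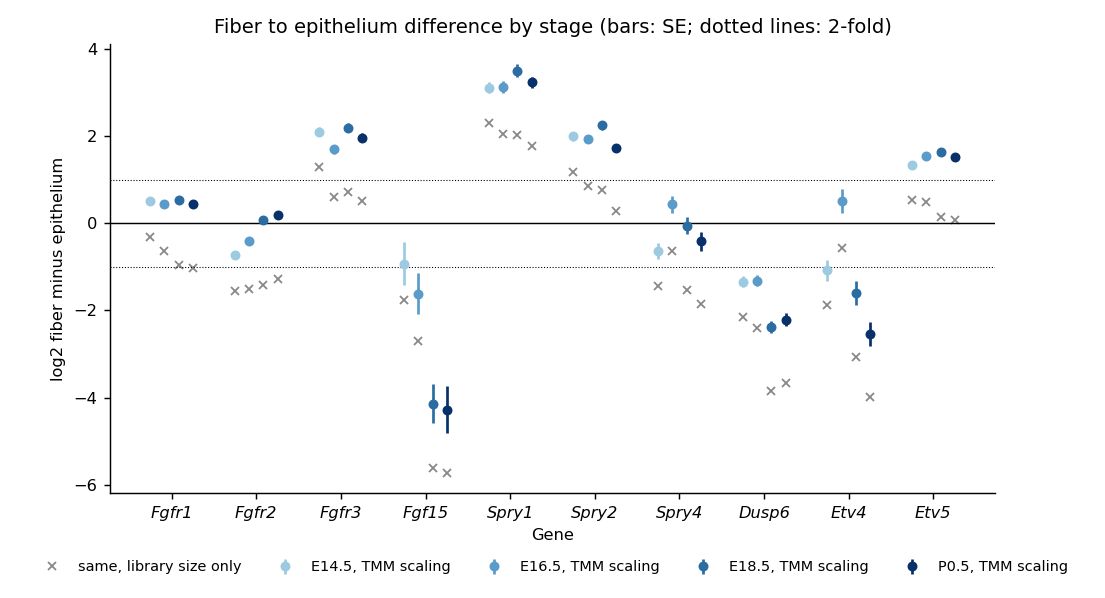
Difference between fiber and epithelium (log2) for each gene at each stage, with TMM scaling (circles, bars are SE) and with library size only (crosses), and dotted lines at 2-fold. Crosses lie below circles for every gene, and for Fgfr1 the sign is opposite under the 2 scalings. The sign also turns for the small positive TMM values of Fgfr2 at E18.5 and P0.5 and of Spry4 and Etv4 at E16.5.

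Fgf15 (chr7:144896532-144900953), a ligand gene known from retinal progenitor cells in the embryonic eye, was the member with the widest range as a fold, from 0.42 to 78.8 CPM. In epithelium it measured 4.59, 11.9 and 3.9 CPM in the E14.5 libraries, 10.5, 7.16 and 18.4 in those of E16.5, 38.9, 46.6 and 78.8 in those of E18.5 and 22.5, 37.2 and 16.6 in those of P0.5. In fiber no library exceeded 5.06 CPM, and the group means were 3.51, 3.92, 2.99 and 1.24 from E14.5 to P0.5, from 4 to 57 counts a library. Epithelium libraries at E14.5 overlapped those of fiber, and at later stages all epithelium libraries were higher. The difference was -0.93 ± 0.49 (log2, SE, n = 3 per group) at E14.5, which was not called (adjusted p = 0.0895), and -1.62 ± 0.47, -4.14 ± 0.44 and -4.28 ± 0.54 at the later stages (adjusted p of edgeR's test 0.00317, 6.25e-09 and 1.22e-07). The E14.5 difference was -0.25 and not called without E14.5 epithelium replicate 2, the library at 11.9 CPM, and it was -1.24 and called without E14.5 epithelium replicate 3.

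Within epithelium Fgf15 rose from E14.5 to P0.5 by 1.90 ± 0.38 (log2, adjusted p = 0.000154, edgeR). It was the 1 member called higher at 2-fold over this interval, as were 10.1% of all genes, while Fgfr3, Spry2 and Etv4 were each 0.61 higher with an adjusted p under 0.05. The rise was 2.58 without E14.5 epithelium replicate 2, the highest library of its group. The called rise between neighbouring stages was from E16.5 to E18.5, where Fgf15 rose by 2.2 ± 0.35 (adjusted p = 2.64e-05, edgeR) and Etv4 rose as well, against 7.3% of all genes that changed in either direction. From E18.5 to P0.5 it fell by 1.11 ± 0.32 (adjusted p = 0.0234, edgeR), a step at which 1.01% of all genes changed. This last call was lost without E18.5 epithelium replicate 3 (-0.75), P0.5 epithelium replicate 1 (-1.03) or P0.5 epithelium replicate 3 (-0.87), and in DESeq2.

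Markers of the retina, which lies close to the lens in the eye, moved with Fgf15. The 11 retina markers summed to 17.3, 26.9 and 21.5 CPM in the E14.5 epithelium libraries and to 25.0, 29.9 and 50.4 CPM at E16.5. They summed to 164, 178 and 246 CPM at E18.5 and to 174, 197 and 147 CPM at P0.5, beside 10.7 to 17.1 CPM in all fiber libraries. At every stage the epithelium library with the most Fgf15 was also the one with the highest retina sum. From E16.5 to E18.5, 9 of the 11 markers rose in epithelium (median log2 change 2.74), and 7 of 8 pigment cell markers did so too (median 4.63). Of all genes, 6.75% were called higher at this step and 0.547% lower. No retina marker was at 0 throughout a group. Their part in the level of Fgf15, or of Etv4, which rose at the same step, was not tested.

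**Figure D3:**
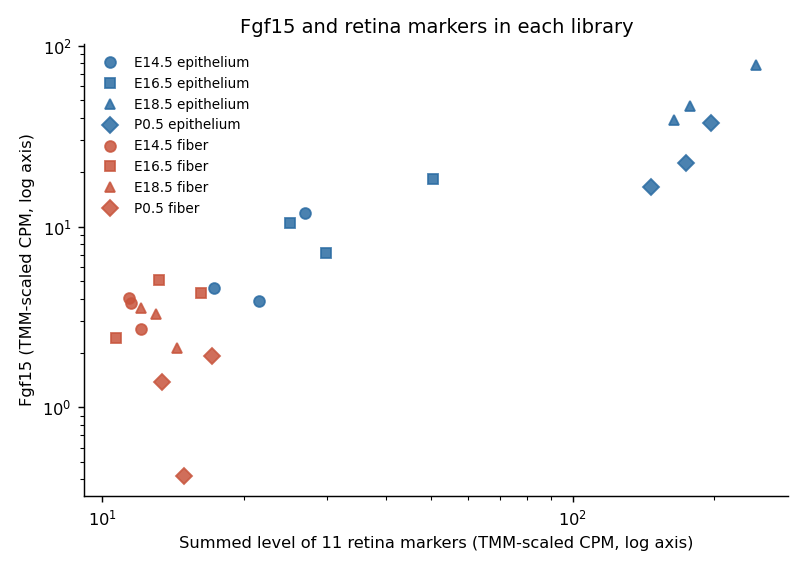
Fgf15 against the summed level of 11 retina markers in each of the 24 libraries (TMM-scaled CPM, both axes logarithmic), with tissue shown by colour and stage by symbol. The E18.5 and P0.5 epithelium libraries, at retina sums of 147 to 246 CPM, hold the highest Fgf15 levels apart from 1 E16.5 library at 18.4 CPM, which lies above the lowest P0.5 library.

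The receptors differed from each other in how they moved. Fgfr3 (chr5:33721724-33737068) was the receptor with the called tissue difference under TMM scaling. Its epithelium levels were 99.6, 113 and 110.4 CPM in the E14.5 libraries, 165, 166 and 157 in those of E16.5, 131, 135 and 109.8 in those of E18.5 and 142, 166 and 186 in those of P0.5. In fiber the values were 450.1, 489 and 443 CPM in the E14.5 libraries, 519, 539 and 513 in those of E16.5, 602, 556 and 564 in those of E18.5 and 602, 553 and 775 in those of P0.5. Every fiber library was above every epithelium library, by 1.99 ± 0.05 on the log2 scale averaged over stages (3.96-fold, adjusted p = 4.11e-21, edgeR). With library size only it was 0.78 and not called. From E14.5 to P0.5 the difference was 0.61 ± 0.10 in epithelium and 0.48 ± 0.10 in fiber (adjusted p 2.07e-05 and 0.000261, edgeR), both under 2-fold. The fiber value was -0.07 with library size only.

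Fgfr2 (chr7:130162451-130266808), the receptor known for its part in survival and cell cycle control in the lens, had, with TMM scaling, a tissue difference whose sign depended on the stage. In epithelium it measured 207, 222 and 231 CPM in the E14.5 libraries, 214, 206 and 198 in those of E16.5, 192, 199.9 and 184 in those of E18.5 and 198, 184 and 205 in those of P0.5. In fiber it measured 128, 133 and 135 CPM in the E14.5 libraries, 160.1, 154 and 147 in those of E16.5, 206, 198 and 204 in those of E18.5 and 229, 212 and 227 in those of P0.5. All fiber libraries were lower at E14.5 and E16.5, the tissues overlapped at E18.5, and all fiber libraries were higher at P0.5. The tissue difference was -0.74 ± 0.05 at first and 0.18 ± 0.05 at P0.5, a change of 0.92 ± 0.08 (adjusted p = 3.06e-09, edgeR's interaction test) that stayed under 2-fold. The size within fiber alone was 0.75 ± 0.05 (adjusted p = 8.61e-11), also under 2-fold. With library size only, Fgfr2 was called lower in fiber, at -1.43 averaged over stages.

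Fgfr1 (chr8:25518759-25575718) had the steadiest level of the receptors. Its group means lay between 106 and 113 CPM in epithelium and between 144 and 157 CPM in fiber, and all fiber libraries were above all epithelium libraries. The tissue difference of 0.47 ± 0.03 (adjusted p = 1.46e-12, edgeR) was below 2-fold, and it was -0.73 with library size only and -0.13 when libraries were scaled by their total count without crystallins and Rn45s, the ribosomal RNA precursor. No direction of Fgfr1 between tissues can therefore be given apart from the scaling.

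Ratios of 2 genes within a library do not depend on the scaling between libraries. The count ratio of Fgfr3 to Fgfr1 ranged from -0.09 to 0.74 (log2) over 12 epithelium libraries and from 1.59 to 2.27 over 12 fiber libraries. The ratio of Fgfr2 to Fgfr1 ranged from 0.77 to 1.11 in epithelium and from -0.27 to 0.76 in fiber, so that its highest fiber library lay just under the lowest epithelium library. Relative to Fgfr1, fiber thus held more Fgfr3 and less Fgfr2 than epithelium under any scaling. Per length of exon, Fgfr3 made up 31.9% ± 1.02 (SD, n = 3) of the summed receptor level in E14.5 epithelium and 43.5% ± 3.11 at P0.5. In fiber its share stayed at 69.5% ± 0.55, 70.7% ± 0.71, 69.3% ± 0.31 and 71.1% ± 2.43 through the 4 stages. Fgfr2 took 45.1% ± 0.32 in epithelium at E14.5, the largest share there, against 13.8% ± 0.64 in fiber. In fiber Fgfr1 took 16.6% ± 0.10 at E14.5 and 11.6% ± 0.54 at P0.5, where Fgfr2 took 17.3% ± 2.0. The annotated exons of Fgfr2 include a transcript that reads through many neighbouring genes. With the longest transcript of each gene in place of the exon total, the Fgfr3 share at E14.5 was 26.3% in epithelium and 64.4% in fiber, and Fgfr2 had 42.5% in P0.5 epithelium beside 37.2% for Fgfr3, which turns the order of these genes there.

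**Figure D4:**
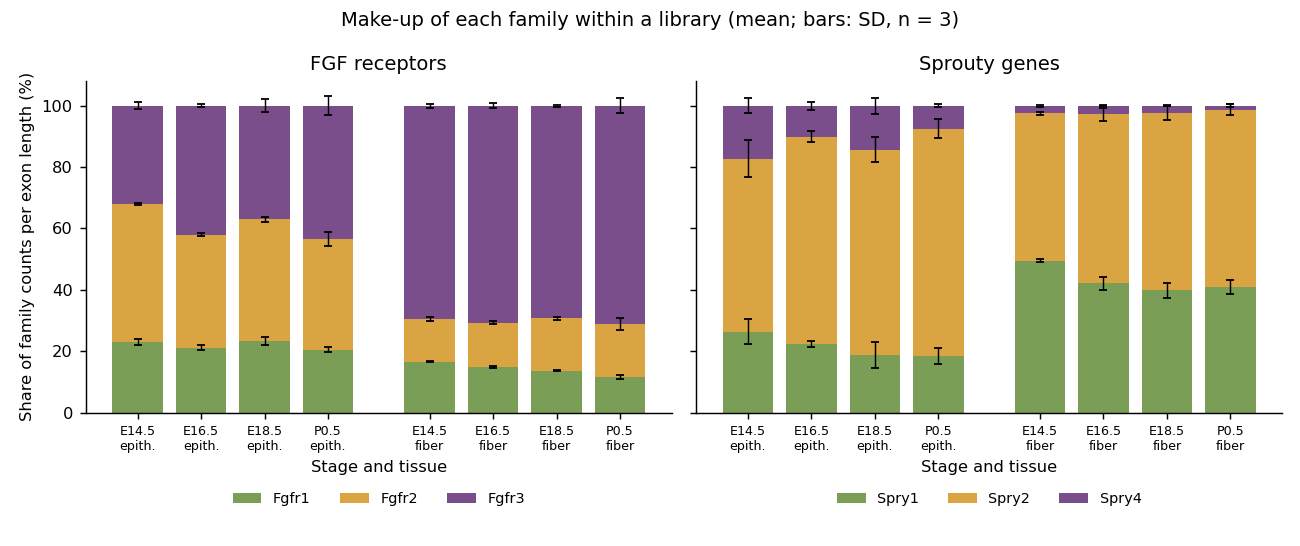
Share of each gene in the summed level of its family per length of exon (percent, bars from 0, error bars SD over 3 libraries), for the FGF receptors on the left and the Sprouty genes on the right, in each of the 8 groups. Fgfr3 takes 69.3% to 71.1% of the receptor level in fiber, and Spry4 takes 1.33% to 2.9% of the Sprouty level in fiber against 7.43% to 17.3% in epithelium.

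Among the inhibitors, Spry1 (chr3:37639947-37644599), which like its relatives blocks receptor tyrosine kinase signalling upstream of ERK, had the largest tissue difference of the 10 genes in the mean of stages with TMM. Fgf15 differed by more at E18.5 and P0.5, and in the mean with library size only (-3.95). In epithelium the values were 12, 9.11 and 12.4 CPM in the E14.5 libraries, 9.15, 12.6 and 10.6 in those of E16.5, 9.18, 5.69 and 7.14 in those of E18.5 and 7.8, 8.65 and 10.5 in those of P0.5. Its fiber levels were 101, 105 and 84.6 CPM in the E14.5 libraries, 98.1, 100.3 and 85.5 in those of E16.5, 82.8, 86.7 and 83.8 in those of E18.5 and 84.7, 87.4 and 81.9 in those of P0.5. The lowest fiber library was thus several-fold above the highest epithelium library. The mean difference was 3.24 ± 0.07 (log2, 9.45-fold, adjusted p = 2.49e-23, edgeR), and it was 2.04 with library size only, where Spry1 was the 1 member still called higher. Over time it was not called in either tissue, with changes of -0.31 ± 0.15 in epithelium and -0.19 ± 0.11 in fiber.

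Spry2 (chr14:105891947-105896819) was also higher in fiber at every stage. Epithelium levels were 18.6, 18.0 and 14.6 CPM in the E14.5 libraries, 21.2, 26.6 and 21.8 in those of E16.5, 17.6, 18.4 and 19.9 in those of E18.5 and 26.2, 27.0 and 25.0 in those of P0.5. Fiber levels were 68.7, 74.2 and 59.2 CPM in the E14.5 libraries, 84.8, 92.7 and 88.0 in those of E16.5, 96.1, 83.2 and 85.2 in those of E18.5 and 88.4, 81.0 and 88.9 in those of P0.5. No fiber library overlapped an epithelium library, and the mean difference was 1.97 ± 0.05 (log2, 3.91-fold, adjusted p = 8.95e-22, edgeR). With library size only it was 0.76 and not called. From E14.5 to P0.5 the difference was 0.61 ± 0.10 in epithelium (adjusted p = 1.78e-05, edgeR) and 0.35 ± 0.09 in fiber, where it was -0.19 with library size only, and neither reached 2-fold.

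Spry4 did not follow its relatives. In epithelium it measured 14.6, 9.52 and 11.9 CPM in the E14.5 libraries, 6.82, 8.03 and 8.77 in those of E16.5, 9.25, 10.5 and 7.68 in those of E18.5 and 5.74, 5.64 and 6.45 in those of P0.5. In fiber it measured 8.22, 7.38 and 7.42 CPM in the E14.5 libraries, 11, 10.1 and 10.8 in those of E16.5, 9.32, 7.98 and 8.83 in those of E18.5 and 3.8, 2.87 and 6.93 in those of P0.5. Fiber was lower at E14.5 and higher at E16.5, and the tissues overlapped at E18.5 and P0.5. Averaged over stages the difference was -0.17 ± 0.10 (adjusted p = 0.103, edgeR), which was called lower, at -1.37, with library size only. In epithelium Spry4 fell by 1.01 ± 0.18 from E14.5 to P0.5 (adjusted p = 5.78e-05, edgeR), the 1 member called lower at 2-fold, as were 3.21% of all genes; Fgfr2 was -0.17 ± 0.05 (adjusted p = 0.00908). That value sits at the 2-fold limit, and the call was lost without E14.5 epithelium replicate 1 (-0.85), P0.5 epithelium replicate 1 (-0.98) or P0.5 epithelium replicate 2 (-0.97), and with library size only (-0.91). In fiber the change was -0.79 ± 0.22, not called, and it was -1.24 and called without P0.5 fiber replicate 3, the library at 6.93 CPM.

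The make-up of the Sprouty family differed accordingly. The count ratio of Spry1 to Spry2 ranged from -1.75 to -0.24 (log2, median -1.15) in epithelium and from -0.21 to 0.55 (median 0.08) in fiber. Per length of exon, Spry1 took 26.4% ± 4.1 of the family in E14.5 epithelium and 18.3% ± 2.61 at P0.5, beside 49.5% ± 0.42 and 40.9% ± 2.19 in fiber. Spry4 took 17.3% ± 2.38 in epithelium at E14.5 against 2.42% ± 0.27 in fiber, and at P0.5 it took 7.43% ± 0.54 and 1.33% ± 0.61. Spry2 was the largest part of the family in every epithelium group, with 56.3% ± 5.95 at E14.5 and 74.2% ± 3.07 at P0.5.

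Dusp6 (chr10:99263231-99267489), the ERK phosphatase, was lower in fiber, opposite to Spry1 and Spry2. Epithelium levels were 41.5, 31.3 and 31.1 CPM in the E14.5 libraries, 26.4, 26.7 and 34.9 in those of E16.5, 40.8, 39.2 and 33.3 in those of E18.5 and 27.6, 31.3 and 30.1 in those of P0.5. Fiber levels were 14.1, 15 and 11.7 CPM in the E14.5 libraries, 12.2, 12.3 and 10.7 in those of E16.5, 6.91, 8.51 and 6.68 in those of E18.5 and 5.95, 6.46 and 6.61 in those of P0.5. No libraries of the 2 tissues overlapped, and the mean difference was -1.82 ± 0.07 (log2, 3.52-fold, adjusted p = 7.94e-18, edgeR). In fiber Dusp6 fell by 1.09 ± 0.16 from E14.5 to P0.5 (adjusted p = 5.2e-06, edgeR), the 1 member called over this interval, when 5.24% of all genes fell and 6.69% rose. In epithelium the change was -0.22 ± 0.12 and not called (adjusted p = 0.111). The change of the tissue difference was -0.88 ± 0.20 (adjusted p = 0.00117, edgeR's interaction test), under 2-fold. It was -1.02 and called without E14.5 epithelium replicate 1 or with the total count without crystallins and Rn45s, and -1.52 with library size only.

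Etv5 (chr16:22381313-22439570) and Etv4 (chr11:101769747-101785310), ETS factors that are both known as FGF targets, went in opposite directions between the tissues. Etv5 measured 39.4, 41.1 and 42.0 CPM in epithelium in the E14.5 libraries, 42.3, 51.5 and 43.3 in those of E16.5, 44.4, 39.0 and 43.8 in those of E18.5 and 41.8, 41.6 and 52.4 in those of P0.5. Its fiber values were 98.5, 112 and 98.9 CPM in the E14.5 libraries, 133, 138 and 133 in those of E16.5, 144, 121 and 129 in those of E18.5 and 129, 129 and 133 in those of P0.5. All fiber libraries were higher, by 1.51 ± 0.04 (log2, 2.85-fold, adjusted p = 2.9e-20, edgeR). This call was lost with library size only (0.31) and with the total count without crystallins and Rn45s (0.91). Its largest step was in fiber from E14.5 to E16.5, 0.38 ± 0.08 (adjusted p = 0.0021, edgeR), under 2-fold.

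Etv4 had few counts, 13 to 86 a library in epithelium and 6 to 26 in fiber. In epithelium it measured 3.09, 2.62 and 3.18 CPM in the E14.5 libraries, 1.24, 1.75 and 0.975 in those of E16.5, 3.33, 3.23 and 3.18 in those of E18.5 and 4.83, 4.04 and 4.74 in those of P0.5. In fiber it measured 1.59, 1.21 and 1.35 CPM in the E14.5 libraries, 2.58, 1.91 and 1.31 in those of E16.5, 1.21, 1.2 and 0.845 in those of E18.5 and 0.76, 0.479 and 1.15 in those of P0.5. Fiber libraries were lower at every stage but E16.5, where the tissues overlapped. The mean difference was -1.18 ± 0.13 (log2, 2.26-fold, adjusted p = 1.42e-08, edgeR), and by stage it was -1.08 ± 0.24, 0.51 ± 0.27, -1.60 ± 0.27 and -2.54 ± 0.27. The E14.5 call was lost, at -1.0, without E14.5 fiber replicate 2.

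In epithelium Etv4 fell by 1.13 ± 0.24 from E14.5 to E16.5 (adjusted p = 0.00129, edgeR), the 1 member called at this step, when 2.53% of all genes changed in either direction. That call was lost without E16.5 epithelium replicate 3 (-0.96), and without E14.5 epithelium replicate 2 Fgf15 was called as well, at 1.49. From E16.5 to E18.5 Etv4 rose by 1.26 ± 0.24 (adjusted p = 0.000238, edgeR), and P0.5 was 0.61 ± 0.20 above E14.5 (adjusted p = 0.011), under 2-fold. In fiber P0.5 was -0.85 ± 0.33 relative to E14.5, not called, and -1.23 and called without P0.5 fiber replicate 3.

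Ratios within libraries show the split within the target genes. Etv5 to Etv4 ranged from 3.11 to 5.47 (log2 count ratio) in epithelium and from 5.69 to 8.08 in fiber, and Dusp6 to Etv5 ranged from -0.95 to 0.07 in epithelium and from -4.44 to -2.81 in fiber. Spry4 to Dusp6 ranged from -2.47 to -1.38 in epithelium and from -1.17 to 0.43 in fiber. Each of these ranges over 12 libraries is apart from that of the other tissue.

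No member changed by the called size at a single step in fiber, where 3.07%, 2.63% and 0.539% of all genes changed at the successive steps. At an unadjusted p under 0.05 in edgeR's test, 4, 3 and 2 members differed at these steps, and DESeq2 called 0 at each. At the later steps the values with an adjusted p under 0.05 were -0.70 ± 0.16 for Dusp6, 0.40 ± 0.05 for Fgfr2 and -0.85 ± 0.30 for Etv4 from E16.5 to E18.5 and -0.98 ± 0.22 for Spry4 from E18.5 to P0.5 (edgeR). The Spry4 step was called without P0.5 fiber replicate 3 (-1.43) or E18.5 fiber replicate 2 (-1.02), and Etv4 from E16.5 to E18.5 was called without E16.5 fiber replicate 3 (-1.06). In the test of whether the tissue difference changed from E14.5 to P0.5, Fgf15 (-3.35 ± 0.80, adjusted p = 0.00185) and Etv4 (-1.46 ± 0.39, adjusted p = 0.00401) were called, beside 11.7% of all genes. The Fgf15 value was -4.03 without E14.5 epithelium replicate 2.

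Set beside each other per kilobase of exon, the order of the 10 genes differed between the tissues. In every fiber group Fgfr3 was highest, with 64.3 CPM per kb at the first stage and 89.9 at the last, and Spry1, Spry2 and Etv5 held the next 3 places. In epithelium Fgfr2 or Fgfr3 came first, at 21.3 and 15 CPM per kb at E14.5 and 18.9 and 23.0 at P0.5, and the libraries of the pair overlapped at P0.5. At E18.5 in epithelium Fgfr2 (18.6), Fgf15 (17.9) and Fgfr3 (17.5) could not be put in order, since each overlapped its neighbour. Etv4 was last in all groups but P0.5 epithelium, where Spry4 at 1.25 CPM per kb overlapped it at 1.46. With the longest transcript as the length, Fgfr3 kept the first place in all fiber groups. Spry1, Spry2 and Etv5 then held the next 3 places in no fiber group. Fgfr2 took place 2 in fiber at E18.5 and P0.5 and place 3 at E16.5. At E14.5 in fiber Etv5 was at place 6, behind Fgfr1 and Fgfr2. In epithelium Fgfr2 then came first in every group, so the order of Fgfr2 and Fgfr3 there depends on the length used.

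The genes whose levels were most like a member over the 24 libraries were ranked by Pearson r of log2 CPM among 9633 other genes. These values share tissue, library and depth and are given without a test. Spry1 was closest to Chrng (r = 0.996), a subunit of the acetylcholine receptor, Snx18 and Prx (both 0.995). Fgfr3 was closest to Fam131a and Tmem40 (both 0.993) and Cryaa (0.992), the alpha-A crystallin, whose group means ran from 7419 CPM in E14.5 epithelium to 225129 in P0.5 fiber. For Spry2 these were Nrcam and Rab11a (both 0.991), and for Dusp6 Tspan13 and Atp2b1 (both 0.986). Fgfr1 was closest to Tep1 (0.973) and Fgfr2 to Soga1 (0.942). Fgf15 was closest to Necab2 (0.942) and Glul (0.941), glutamine synthetase. Spry4 had the immediate early gene Egr1 first (0.852), and Etv4 had Rimklb (0.840). Values within a tissue could be lower or higher than over all libraries. The r of Fgfr3 with Spry2 was 0.99 over 24 libraries, 0.75 within 12 epithelium libraries and 0.70 within 12 fiber libraries, and that of Spry1 with Spry2 was 0.96, -0.02 and -0.23. That of Fgfr2 with Fgfr3 was -0.34, -0.23 and 0.84, and that of Fgfr2 with Dusp6 was 0.12, -0.26 and -0.96.

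The rest of the pathway was described with lists of ligands, co-receptors, heparan sulfate enzymes, adaptors, the RAS to ERK cascade and other feedback and target genes. In the mean of stages their counts stand beside 15.7% of all genes called higher in fiber and 22.2% lower, or 4.72% and 59.7% with library size only. Of 21 other FGF genes, 4 were found in the table. Fgf12 was higher in fiber (2.23 ± 0.22, log2, mean of stages), and Fgf1 (-2.84 ± 0.22) and Fgf13 (-3.60 ± 0.14) were lower (adjusted p 1.1e-09, 1.63e-11 and 1.28e-17, edgeR). Fgf12 and Fgf13 belong to the FGFs that stay inside the cell. Fgf1, a ligand that binds all FGF receptors, rose from E14.5 to P0.5 in epithelium by 3.5 ± 0.30, from 1.04 to 11.7 CPM. Fgf15 also rose there between these end points, but it fell from E18.5 to P0.5, when Fgf1 went from 6.53 to 11.7 CPM. In fiber Fgf1 rose too, by 3.72 ± 0.62 (0.132 to 1.84 CPM), while Fgf15 went from 3.51 to 1.24 CPM, not called. The Fgf1 level in E14.5 fiber rests on few counts, so the size of its rise there is imprecise.

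Of 13 co-receptors and matrix partners tested, 3 were higher in fiber and 8 lower, with 1 higher and 10 lower under library size only. Fgfrl1, a receptor relative without a kinase domain, was 3.38 ± 0.05 higher, at 406 CPM in fiber and 38.3 in epithelium, which put it with Fgfr3 in direction. Flrt1, a membrane protein that binds FGF receptors, was lower (-2.69 ± 0.15) and rose in epithelium between E14.5 (2.17 CPM) and P0.5 (33.3 CPM). Part of that rise lay between E16.5 (8.47 CPM) and E18.5 (32.3 CPM), the step of the retina and pigment cell markers, whose part in it was not tested. The glypicans Gpc4 (-3.59 ± 0.06), Gpc2 (-3.58 ± 0.13), Gpc3 (-3.43 ± 0.11) and Gpc6 (-2.67 ± 0.05), proteoglycans that carry heparan sulfate, were lower. Among 17 heparan sulfate enzymes 0 were higher and 8 were lower, and 14 were lower with library size only, beside 22.2% and 59.7% of all genes. The largest were the sulfatase Sulf1 (-5.15 ± 0.07, from 217 to 6.28 CPM) and the sulfotransferase Hs6st2 (-4.61 ± 0.10).

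Downstream of the receptors, the adaptor list had 1 gene higher and 2 lower of 12, with 1 and 5 under library size only, beside 15.7% and 22.2% of all genes with TMM. Shc1, an adaptor that links receptors to RAS, was 3.05 ± 0.05 higher and rose in fiber between E14.5 (314 CPM) and P0.5 (908 CPM), while Plcg1, the phospholipase bound by activated FGF receptors, was lower (-2.10 ± 0.04). Frs2, the main docking protein of FGF receptors, was at 0.32 and not called. In the RAS to ERK cascade, Hras, a RAS protein, was higher (1.06 ± 0.04) and 0 of 13 genes were lower, while under library size only 0 were higher and 5 lower. Among 7 other feedback genes, Dusp4 (1.30 ± 0.09), a nuclear ERK phosphatase, was higher, while Il17rd (-4.00 ± 0.14), the transmembrane FGF inhibitor Sef, and Spred2 (-1.30 ± 0.06) were lower, and under library size only 0 were higher and 6 lower. Dusp4 and Dusp6, phosphatases of the same pathway, thus had opposite signs with TMM. Of 8 other target genes 0 were higher and 5 were lower in fiber, Myc most (-4.02 ± 0.19), and with library size only 8 were lower.

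From E14.5 to P0.5, 3 of the 8 other target genes tested fell and 1 rose in epithelium, and 4 fell and 1 rose in fiber. Of all genes, 3.21% fell and 10.1% rose in epithelium over this interval, and 5.24% fell and 6.69% rose in fiber. Egr1 fell by 2.2 ± 0.37 in epithelium and by 3.25 ± 0.58 in fiber, Fos fell by 2.14 ± 0.33 and 2.79 ± 0.47, and Myc fell by 2.75 ± 0.23 and 3.02 ± 0.66 (adjusted p of edgeR's test 1.97e-05, 5.29e-05, 7.95e-06, 3.05e-05, 5.87e-10 and 0.000493). Egr1 did not fall steadily. Its epithelium means were 20.7, 9.51, 13.9 and 4.53 CPM in the order of the stages. In fiber they were 10.3, 21.0, 21.4 and 1.11 CPM, so the fall there lay between E18.5 and P0.5. Ier2 fell in fiber by 1.38 ± 0.34. Ier3 rose in both tissues, from 0.215 to 1.18 CPM in epithelium (2.44 ± 0.48, adjusted p = 0.00019, edgeR) and from 0 to 0.243 CPM in fiber (adjusted p = 0.00896), levels that rest on few counts. Il17rd rose by 1.63 ± 0.18 in epithelium, while Dusp4 fell by 1.13 ± 0.18. The Il17rd step lay between E16.5 (7.11 CPM) and E18.5 (28.7 CPM). There 9 of 11 retina and 7 of 8 pigment cell markers rose, beside 6.75% of all genes. The part of those cells in the Il17rd level was not tested. In fiber Mapk3, the gene of ERK1, rose by 1.21 ± 0.08.

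Vessel markers were lower in fiber, as were 7 of 7 epithelium markers. The endothelium list had 10 of 10 markers lower (median -4.93) and the mural cell list 6 of 6 (median -4.44), beside 22.2% of all genes. Kdr, the endothelial VEGF receptor, was -4.72 ± 0.18. Within epithelium the endothelium markers summed to 425 to 488 CPM at E14.5 and 265 to 328 CPM at E16.5. They summed to 361 to 499.7 CPM at E18.5 and 301 to 367 CPM at P0.5. The 6 mural cell markers summed to 105 to 143 CPM at E14.5 and 141 to 171 CPM at E16.5. Their sums were 288 to 344 CPM at E18.5 and 309 to 343 CPM at P0.5. The part of endothelial and mural cells in the levels of Fgf15, Dusp6, Etv4, the glypicans or Il17rd in epithelium was not tested. Genes that overlap the members on the opposite strand are annotated for Fgfr1 (Gm16159), Fgfr3 (G630022F23Rik), Fgf15 (Gm26793 and Gm39119), Spry1 (Gm42922) and Spry4 (Gm27369 and Gm27804). The annotated span of Fgfr2, with its read-through transcript, holds many genes on both strands, some of them in the count table. The library kit marks strand, but no source used here gives the strand setting of the counting, so reads of these genes and the members cannot be told apart.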

How the data were processed

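RNA levels in 24 libraries come from total RNA sequencing, and the deposited table holds counts, not normalized, for 12611 gene symbols with 1 column per library. Per the submitters' processing notes the reads were handled on build mm10 by HTSeq 0.6.1, TopHat2 2.0.13, Cufflinks 2.2.1, Cuffdiff and Trim Galore 0.4.1 (listed in no order), whose roles are not given in the sources used here. Libraries were grouped by the labelled tissue and stage. All libraries entered 1 quasi-likelihood fit of 8 group means in edgeR 4.0.16 (R 4.3.3) with TMM scaling, which takes the bulk of genes as equal between libraries. The filter filterByExpr (minimum count 10, minimum total 15) kept 12427 genes and removed 184, the fit had 16 residual degrees of freedom, and the biological coefficient of variation was 0.0821. Two-sided p-values were adjusted by Benjamini-Hochberg over all genes tested. CPM is relative to the TMM-scaled library size, its errors are SD over 3 libraries, and errors of log2 differences are SE from the F statistic. Replicates were not copies of each other, since any 2 of a group differed by a chi-square of at least 3.89 per degree of freedom. The fitting code was tested on simulated data. With 3 against 3 libraries no exact permutation test can go below p = 0.1, so none is given.

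The members, the gene lists and the rules were chosen with earlier results of these data known. Named genes are the 10 members, called genes of the pathway lists (up to 6 a list by size, in addition to a few uncalled ones given as values and chosen after their values were seen) and the 3 genes most like each member among those with at least 10 CPM in 1 group. Of the symbols, 97.9% match 1 gene of GENCODE M21, which gave exon lengths. Coordinates and promoter windows are from RefSeq GRCm38.p6, the same assembly as mm10. Alternatives were scaling by library size only, TMM without crystallins and Rn45s, DESeq2 1.42.0, no filter, a replicate block, no fold threshold and leaving out each library. Scaling by the total count without crystallins and Rn45s was added after the data were seen. Values for a few of the genes so named are not reported here.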

Additional observations from a re-analysis of the deposited data

Results flagged for a closer look

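The tissue difference of Fgf15 was not the same at the 2 ends of the time course. Fiber minus epithelium was -0.93 (log2) at E14.5 and -4.28 at P0.5, a change of -3.35 (adjusted p = 0.00185, edgeR's interaction test over 12427 genes). The group means went from 6.79 to 25.4 CPM in epithelium and from 3.51 to 1.24 CPM in fiber. The P0.5 fiber libraries held 11, 24 and 4 counts of Fgf15, so the fiber side of this difference is the less precise one.

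For Etv4 the difference changed from -1.08 to -2.54, by -1.46 (adjusted p = 0.00401, the same test). Epithelium went from 2.96 to 4.54 CPM and fiber from 1.38 to 0.798 CPM.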

How the results depend on the processing

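Of 40 values of single members (10 genes in 4 comparisons), all kept their direction and call without the filter, with the replicate block and with crystallins and Rn45s left out of TMM. With library size only, members called higher in fiber were 1 instead of 4 (average, E16.5, E18.5, P0.5), and lower were 5 (average, E14.5, E18.5) or 6 (P0.5). In epithelium 0 fell from E14.5 to P0.5, in fiber 4 fell, and 2 changed from E16.5 to E18.5 in fiber. Signs turned for Fgfr1 between tissues (-0.73) and in epithelium over time (0.08), for Fgfr3 (-0.07), Spry2 (-0.19) and Etv5 (-0.21) over time in fiber, and for the change of the tissue difference of Spry1 (-0.52), Spry4 (-0.42) and Etv5 (-0.45). These shifts follow from the zero point: over all genes 1945 were higher and 2758 lower with TMM, 587 and 7423 with library size only, and 949 and 4516 with the total count without crystallins and Rn45s. With that total, 5 members were lower at E14.5, and Fgfr1 (-0.13) and the Spry1 interaction (-0.03) turned. DESeq2 called 2 members lower at P0.5 in fiber and 0 changed from E18.5 to P0.5 in epithelium; the cause was not tested. Without the fold threshold, from E14.5 to P0.5 the counts were 4 higher and 2 lower in epithelium and 4 higher and 3 lower in fiber, 4 members were lower at E14.5, the steps gave 4, 6 and 5 in epithelium and 3, 3 and 1 in fiber, and the interaction gave 4.

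Leaving out 1 library gave 1 to 3 members lower at E14.5, 0 to 1 lower over time in epithelium and 1 to 3 in fiber, 0 to 2 changed from E14.5 to E16.5 and 0 to 1 from E18.5 to P0.5 in epithelium, and 0 to 1 at the later fiber steps. Values whose sign turned were Fgfr1 in epithelium (-0.05 to 0.02), in fiber (-0.17 to 0.01) and in the interaction (-0.16 to 0.02), and Spry4 in the interaction (-0.23 to 0.51). Same-numbered libraries of the 2 tissues had correlations of -0.0662 to 0.221 in their deviations, and not every library was closest to its own number, so the numbers were not taken as pairs, and the replicate block changed none of the member calls (4 higher and 3 lower between tissues). Low counts limit Etv4 and fiber Fgf15.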
